A study of Mus musculus with 12 samples.

Results

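The genes described here encode the proteins of the spliceosome and of the large families that bind or unwind RNA. Members were all genes whose symbol began with Srsf, Snrp, Hnrnp, Sf3a or Sf3b, Prpf, Lsm with a number, Rbm with a number, U2af, Ddx or Dhx. The rule used names alone and no measured value. It found 126 of the 7902 genes in the tables, measured through 173 of 10720 transcripts. There were 26 Ddx, 19 Rbm, 19 Hnrnp, 12 Snrp, 11 Dhx, 10 Prpf, 10 Lsm, 9 Srsf, 8 Sf3 and 2 U2af genes. The mouse annotation holds 173 protein-coding genes with such symbols, of which 72.8% were therefore in the tables, against 35.9% of all protein-coding genes. The remaining genes were not analysed here.

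Bulk RNA sequencing was done on mouse skin in 3 groups of 4 libraries, numbered 01 to 04. The M+NSPCC1 group received NSPCC1, a grape seed extract, on top of a model of skin ageing in which D-galactose, a sugar given in excess, is combined with UVA and UVB irradiation. The Model group had the same model without extract, and the Ctrl group was control skin, for which no agent is named. The sources used here give no strain, age, sex, body site, dose or time, and do not state whether each library is a different animal. The p-values therefore reflect library-to-library spread, part of which may be technical. Estimated counts in the tables totalled 9717338 to 10952623 per library. Of the transcripts tested, 96.8% were called against Ctrl for Model, M+NSPCC1 or both, so the tables hold mostly what changed, and a count of changed genes carries information only beside the same count over all tested genes.

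Splicing removes introns from a transcript in steps carried out by small nuclear ribonucleoproteins. U1 marks the start of the intron, U2 with the SF3a and SF3b proteins takes the branch point after U2AF has bound the intron's end, and the U4/U6.U5 particle then joins and is rearranged by helicases into the active enzyme. Each particle except U6 is built on a ring of Sm proteins (Snrpb to Snrpg), and U6 carries a ring of Lsm proteins in its place. SR proteins (Srsf) usually favour the inclusion of an exon and hnRNP proteins often oppose it, while DEAD-box and DEAH-box helicases (Ddx, Dhx) also serve ribosome assembly, export, translation and the sensing of viral RNA. In skin, dividing cells lie mainly in the basal epidermis and in the hair matrix.

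The members together made up 2.82% to 3.06% of the summed count in M+NSPCC1 libraries, 2.38% to 2.94% in Model libraries and 1.63% to 1.76% in Ctrl libraries. All 8 libraries with induced ageing lay above all 4 Ctrl libraries. The Hnrnp genes held the largest part, with 1.18% ± 0.0440 in M+NSPCC1, 1.07% ± 0.127 in Model and 0.601% ± 0.0324 in Ctrl libraries (SD, n = 4 each). Ddx genes followed with 0.523% ± 0.0248, 0.503% ± 0.0344 and 0.365% ± 0.0128 in the same order of groups. Among the Model libraries Model 03 was the lowest, at 2.38% against 2.77% to 2.94% in the other 3, and it held the lowest Model value for 96 of the 124 members tested.

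Other cell populations differed between the same groups. Markers of dividing cells (15 of 15 listed genes present) made up 0.255% to 0.291% of the summed count in M+NSPCC1, 0.148% to 0.272% in Model and 0.0402% to 0.0484% in Ctrl libraries, and the lowest Model value, 0.148%, was that of Model 03 (others 0.244% to 0.272%). Hair shaft and matrix markers (19 of 20) held 3.82% to 6.56%, 5.10% to 7.89% and 0.00255% to 0.0352%, and skeletal muscle markers (15 of 15) 1.06% to 1.69%, 0.443% to 1.5% and 7.38% to 7.67%, in M+NSPCC1, Model and Ctrl. Melanocyte markers (7 of 7) held at most 0.00438% in Ctrl and at least 0.0999% elsewhere, while immune markers (6 of 9) held 0.0595% to 0.0992%, 0.0471% to 0.142% and 0.233% to 0.359% and fibroblast markers (4 of 7) 0.508% to 0.652%, 0.334% to 0.863% and 0.933% to 1.14%. Keratinocyte markers (3 of 6), which check the label of skin, were present in every library at 0.491% to 0.811%, 0.448% to 0.878% and 0.617% to 0.841%, and no marker present in the tables was at 0 in all libraries. The 3 keratinocyte markers did not move together: their log2 fold changes of Model over Ctrl ran from -1.82 to 0.72, 2 above 0 and 1 below. In bulk tissue, fewer cells of a type and less RNA per cell cannot be told apart, and the part of these populations in the results below was not tested.

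**Figure D1:**
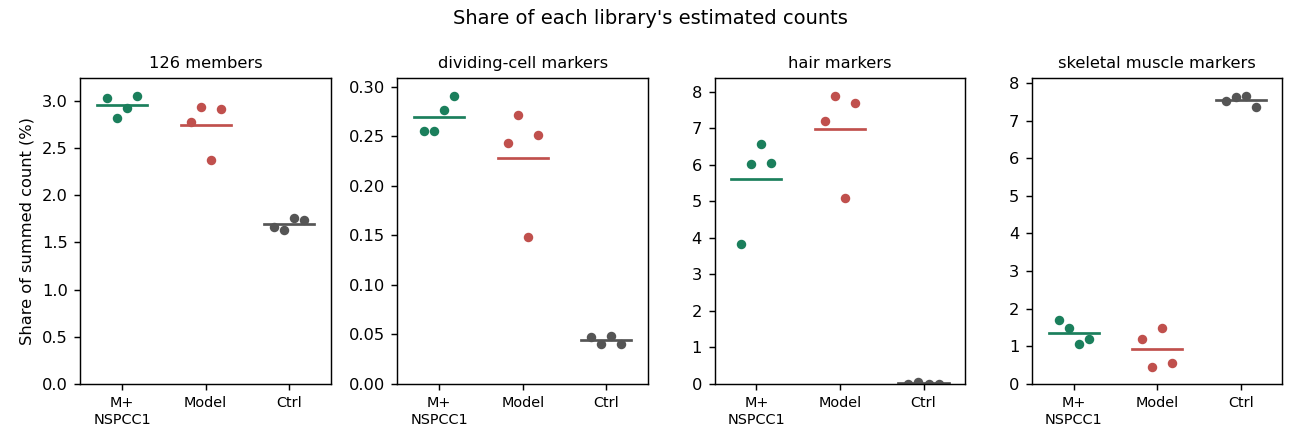
Share of each library's summed estimated count (%) held by the 126 members and by 3 marker lists, with 1 point per library and the group mean as a line, for M+NSPCC1, Model and Ctrl (n = 4 each). The members and the dividing-cell markers are higher in all 8 libraries with induced ageing than in Ctrl, and Model 03, at 2.38% and 0.148%, is the lowest Model library in both.

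Per transcript length, in FPKM (fragments corrected for transcript length and for the reads in a library), the most abundant members were Snrpg, an Sm ring protein, Rbm3, a cold-inducible RNA-binding protein, and the hnRNP proteins Hnrnpa2b1 and Hnrnpa1. Snrpg had 643 ± 57.9 FPKM in M+NSPCC1, 607 ± 126 in Model and 332 ± 11.3 in Ctrl libraries, and Rbm3 553 ± 62.3, 556 ± 59.0 and 233 ± 19.0 (SD, n = 4 each). Hnrnpa2b1 ranged over 426 to 471 FPKM in M+NSPCC1, 330.3 to 476 in Model and 249.7 to 280.3 in Ctrl libraries, and Hnrnpa1 over 437 to 508, 262 to 473 and 153 to 176. In M+NSPCC1 and in Model libraries the range of Snrpg overlapped that of Rbm3 and the ranges of the hnRNP pair overlapped each other. The ranges therefore do not rank the 2 members of each pair, and their values within each library were not compared. Every Rbm3 value lay above every Hnrnpa2b1 value in both groups. In Ctrl libraries none of the 4 ranges overlapped except those of Rbm3 and Hnrnpa2b1. The lowest members were Ddx60, Ddx50 and Rbm47, each under 1 FPKM on average in every group.

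The comparison of Model with Ctrl shows what accompanied induced ageing. Most members rose: 104 of 124 tested were called higher in Model at an edgeR adjusted p under 0.05 (quasi-likelihood fit of all 12 libraries, Benjamini-Hochberg over all genes), 8 were lower and 12 did not pass. That is 83.9% higher, where 49.1% of all tested genes were called higher, and 6.45% lower, where 41.4% of all tested genes were called lower, or 90.3% against 90.5% in either direction. The rises were moderate: 13 reached 2-fold, 40 lay between 1.5-fold and 2-fold, and 51 were smaller. The median log2 fold change of the members was 0.51, against 0.25 over all tested genes. For 87 members every Model library lay above every Ctrl library (43.2% of all tested genes did so) and for 7 every Model library lay below (39.8%).

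The size of these rises depended on the scaling of the libraries. With DESeq2's size factors 77 members were called higher and 9 lower (background 41% and 42.4%), the members' median was 0.34 and that of all tested genes 0.083. Scaled to the depth of the whole libraries, 113 were higher and 7 lower (background 53.3% and 40.1%), with medians of 0.69 and 0.43. DESeq2's own test called 80 higher and 11 lower (background 41.4% and 42.6%), and limma on log2(FPKM + 1) 112 and 7 (54.3% and 41.2%). A scaling shifts all genes alike, so it cannot move the distance between these medians. Without the library Model 03, 109 members were higher and 7 lower.

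**Figure D2:**
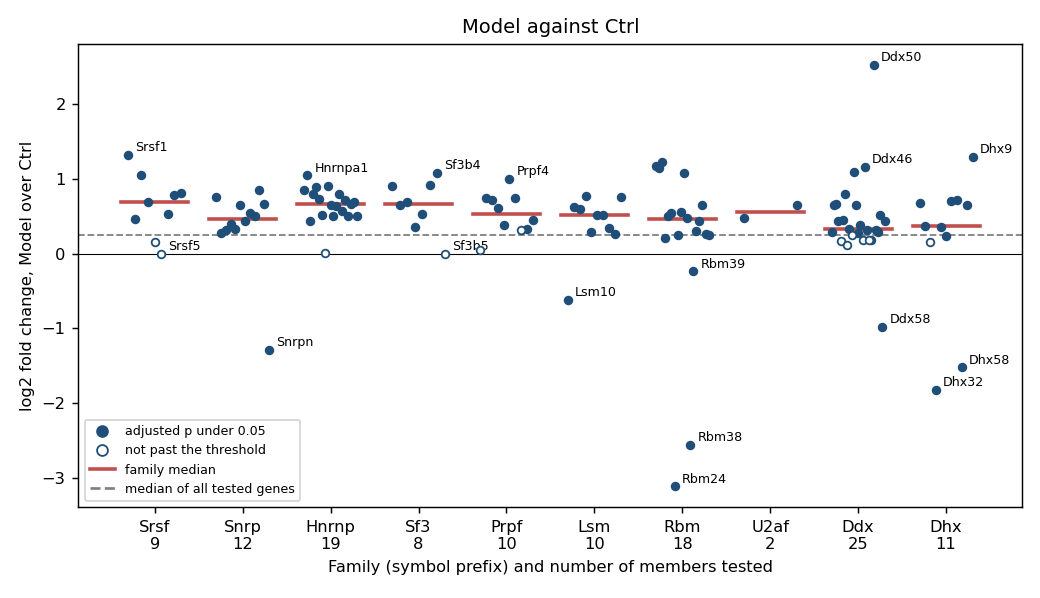
Log2 fold change of Model over Ctrl for each of the 124 members tested, by family; filled points passed an adjusted p of 0.05, red lines are family medians and the dashed line is the median of all tested genes. All 10 family medians lie above the dashed line at 0.25, and 8 named members lie below 0 past the threshold.

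All 7 Sm ring genes were higher in Model, with log2 fold changes from 0.32 to 0.85 and a median of 0.54. Snrpb, which encodes the ring proteins SmB and SmB' (chromosome 2, 130171636 to 130179382, GRCm38), had 283, 274, 282 and 278 CPM (counts scaled to library size, with TMM factors) in M+NSPCC1, 272, 281, 221 and 253 in Model and 189, 212, 208 and 214 in Ctrl libraries 01 to 04. Its lowest Model value, in Model 03, was above its highest Ctrl value, and its log2 fold change was 0.32 (SE 0.078; edgeR adjusted p = 0.00233). With DESeq2's size factors Snrpb was no longer called. Snrpd1, another ring subunit, changed by 0.65 (SE 0.12), Snrpe by 0.50 (SE 0.11) and Snrpg by 0.67 (SE 0.15) on the log2 scale. Both U1 proteins, Snrpa and Snrpc, rose as well (median 0.55).

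One member of the Snrp family went the other way. Snrpn encodes SmN, a close relative of SmB made from an imprinted locus and best known from neurons (chromosome 7, 59982495 to 60450177). It had 5.96, 7.79, 6.83 and 7.72 CPM in M+NSPCC1, 8.24, 5.0, 7.64 and 5.22 in Model and 15.3, 18.3, 15.4 and 14.8 in Ctrl libraries, so that every library with induced ageing lay below every Ctrl library. Its log2 fold change of Model over Ctrl was -1.29 (SE 0.20; edgeR adjusted p = 0.000111). Snrpn and Snrpb are similar in sequence, so the division of reads between them is uncertain.

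Of the 12 tested proteins of the U2 particle and its partners, 11 were higher in Model and the median log2 fold change was 0.59. Sf3b4, a subunit of SF3b that holds the branch point region (chromosome 3, 96172506 to 96177564), showed the largest change of them. It had 154, 138, 154 and 147 CPM in M+NSPCC1, 153, 164, 149 and 156 in Model and 63.5, 67.3, 81.3 and 81.1 in Ctrl libraries, with a log2 fold change of 1.09 (SE 0.088; edgeR adjusted p = 7.6e-07). The 4 Model values lay close together, and the groups did not overlap. Sf3b1, the large scaffold of SF3b, changed by 0.36 (SE 0.083), Sf3b2 by 0.54 (SE 0.078), and the U2AF subunits U2af1 and U2af2, which read the end of the intron, by 0.47 (SE 0.10) and 0.65 (SE 0.086).

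Sf3b5, a small subunit of the same complex, was the exception. It had 79.8, 81.5, 83.3 and 81.8 CPM in M+NSPCC1, 72.7, 79.3, 69.5 and 68.0 in Model and 70.1, 68.8, 77.0 and 73.6 in Ctrl libraries, and its log2 fold change of Model over Ctrl was 0.00018 with a 95% interval of -0.15 to 0.15 (edgeR adjusted p = 0.998). The direction of Sf3b5 follows the scaling: it was -0.17 and called lower with DESeq2's size factors, and 0.18 and called higher with the depth of the whole libraries. Relative to the median of all tested genes it lay 0.25 lower with the scaling used throughout.

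Of 9 tested proteins grouped here with the U4/U6.U5 particle 7 rose and 2 did not pass (median log2 fold change 0.46). The group is wider than the particle itself, as it includes Prpf18, which acts in the second step of splicing. Prpf8, the scaffold of the catalytic centre, had 499, 496, 536 and 509 CPM in M+NSPCC1, 514, 528, 406 and 547 in Model and 306, 390.2, 382 and 375 in Ctrl libraries. The change of Model over Ctrl was 0.46 (SE 0.11; edgeR adjusted p = 0.00156), and Model and Ctrl did not overlap, with Model 03 the nearest to the Ctrl range. Prpf38a, which joins the particle before activation, changed by 0.61 (SE 0.10) on the log2 scale. Prpf18 and Prpf4b did not pass, at 0.048 and 0.33.

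Lsm proteins followed the Sm proteins. All 7 tested members of the ring rose (median log2 fold change 0.51). Lsm2 (chromosome 17, 34981854 to 34985891), of the rings on U6 and on decaying mRNA, had 36.6, 34.3, 37.1 and 46.3 CPM in M+NSPCC1, 39.0, 44.4, 30.7 and 38.8 in Model and 20.8, 23.6, 22.8 and 22.6 in Ctrl libraries, with no overlap between Model and Ctrl. These levels sum 2 transcripts with identical values and are too high if those are copies of each other. On the log2 scale the change was 0.77 (SE 0.13; edgeR adjusted p = 0.000189). Lsm5 changed by 0.51 (SE 0.10), Lsm6 by 0.34 (SE 0.11) and Lsm7 by 0.26 (SE 0.11). With DESeq2's size factors 4 of the 7 ring members were called higher, and the call on Lsm7 (edgeR adjusted p = 0.0463) was lost without any 1 library other than Ctrl 03, Model 03 and Model 04, and with only the 8 libraries compared. Lsm10, which belongs to the U7 particle that trims histone mRNAs, was lower in Model. It had 11.9, 13.1, 19.3 and 18.5 CPM in M+NSPCC1, 16.9, 13.8, 20.7 and 12.5 in Model and 27.5, 22.8, 24.0 and 23.7 in Ctrl libraries, and its log2 fold change was -0.62 (SE 0.20; edgeR adjusted p = 0.0115).

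Among the SR proteins 7 of 9 rose and none fell. Srsf1, a regulator of splice site choice (chromosome 11, 88046499 to 88053757), showed the largest rise of any member above 5 CPM. It had 454, 544, 568 and 556 CPM in M+NSPCC1, 516, 552, 452 and 522 in Model and 193, 185, 212 and 225 in Ctrl libraries, and no Model library came near the Ctrl range. As for Lsm2, the level sums 2 transcripts with identical values. Model over Ctrl gave a log2 fold change of 1.33 (SE 0.10; edgeR adjusted p = 4.14e-07). Srsf2 had 485, 399, 425 and 458 CPM in M+NSPCC1, 371, 492, 312 and 426 in Model and 170.1, 177, 223 and 202 in Ctrl libraries, with a log2 fold change of 1.05 (SE 0.14; edgeR adjusted p = 2.84e-05). Srsf3 changed by 0.70 (SE 0.10). The members that did not pass were Srsf4, at 0.15, and Srsf5, at -0.0030 with a 95% interval of -0.27 to 0.26.

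Of 19 tested hnRNP genes, 18 rose and the median log2 fold change was 0.67, with an interquartile range of 0.51 to 0.80. Hnrnpa1, which represses exons and shuttles mRNA (chromosome 15, 103239943 to 103246698), had 1116, 1085, 1124 and 1247 CPM in M+NSPCC1, 988, 1206, 693 and 1070.5 in Model and 467, 441, 517 and 484 in Ctrl libraries. Model 03 stood well below the other Model libraries and still above every Ctrl library, and the log2 fold change was 1.05 (SE 0.14; edgeR adjusted p = 3.49e-05). Hnrnpa2b1 changed by 0.44 (SE 0.090) and Hnrnpk, a protein that binds cytosine-rich RNA, by 0.63 (SE 0.075). Hnrnpdl was the hnRNP gene that did not pass, with 299, 285, 291 and 310.0 CPM in M+NSPCC1, 249, 263, 211 and 280.2 in Model and 246, 239.9, 264 and 250.4 in Ctrl libraries. Its log2 fold change of Model over Ctrl was 0.0046 (95% interval -0.18 to 0.19), and DESeq2's own test called it lower at -0.17.

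**Figure D3:**
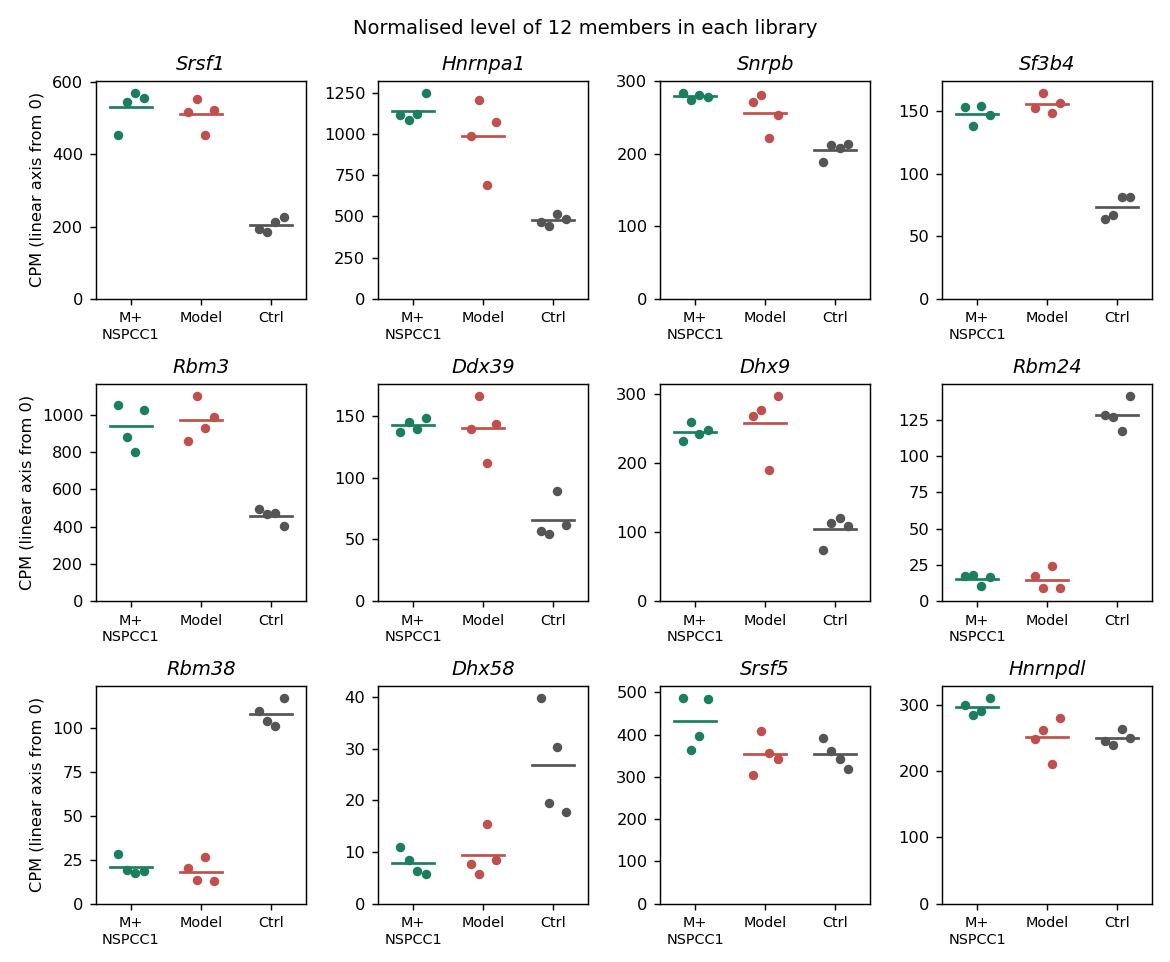
CPM after TMM scaling of 12 members in each library (points) with the group mean (line), on linear axes from 0, for M+NSPCC1, Model and Ctrl (n = 4 each). Srsf1 through Dhx9 are higher in all 8 libraries with induced ageing than in Ctrl, Rbm24, Rbm38 and Dhx58 are lower in all 8, and the Model and Ctrl points of Srsf5 and Hnrnpdl overlap.

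Genes named Rbm share an RNA-binding motif and little else, and in Model 15 of 18 tested rose and 3 fell. Of the 18, 8 were called higher with DESeq2's size factors and 9 with its own test, where 41% and 41.4% of all tested genes were. Rbm15b, of the complex that methylates adenosine in mRNA, had 72.7, 75.3, 75.9 and 81.4 CPM in M+NSPCC1, 74.7, 90.0, 66.6 and 85.5 in Model and 30.1, 39.0, 31.7 and 34.9 in Ctrl libraries. Its log2 fold change was 1.22 (SE 0.11; edgeR adjusted p = 1.7e-06), and the lowest Model library lay far above the highest Ctrl library. Rbm12 changed by 1.18 (SE 0.12) and Rbm14, a coactivator found in nuclear paraspeckles, by 1.14 (SE 0.12). Rbm3 (chromosome X, 8138975 to 8145880), which is induced by mild cold, had 1053, 882, 802 and 1023 CPM in M+NSPCC1, 857, 1101, 928 and 989 in Model and 496, 465, 471 and 401 in Ctrl libraries and a log2 fold change of 1.08 (SE 0.11; edgeR adjusted p = 5.17e-06). Rbm17, a splicing factor that binds branch point proteins, was called higher at 0.21 (edgeR adjusted p = 0.0414), a call that ended under DESeq2's size factors and on leaving out any of Ctrl 01, Ctrl 02, Ctrl 04, Model 01, Model 02, Model 04 and M+NSPCC1 04, and in a fit of only the 8 libraries compared.

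The largest falls among all members were those of Rbm24 and Rbm38, close relatives that regulate splicing and mRNA stability as muscle differentiates. Rbm24 (chromosome 13, 46418102 to 46431099) had 17.2, 18.1, 10.8 and 16.4 CPM in M+NSPCC1, 17.0, 9.08, 24.2 and 9.13 in Model and 128, 127, 117 and 141 in Ctrl libraries. The change of Model over Ctrl was -3.11 (SE 0.30; edgeR adjusted p = 2.56e-06). Rbm38 (chromosome 2, 173021891 to 173034734) had 28.2, 19.2, 17.5 and 18.6 CPM in M+NSPCC1, 20.5, 13.3, 26.5 and 12.9 in Model and 109.7, 104, 101 and 117 in Ctrl libraries and changed by -2.56 (SE 0.23; edgeR adjusted p = 1.8e-06). For both genes the highest of the 8 libraries with induced ageing was far below the lowest Ctrl library. Skeletal muscle markers moved with them: all 15 fell in Model, with a median log2 fold change of -3.22, and within the Model group the libraries with more muscle signal (1.18% in Model 01 and 1.5% in Model 03) had more Rbm24 and Rbm38 than those with less (0.443% in Model 02 and 0.545% in Model 04). Within Ctrl the order was the reverse: Ctrl 03 had the most muscle signal (7.67%) and the lowest Rbm24 and Rbm38. Ctrl 04 had the least muscle signal (7.38%) and the highest values of both genes. Among M+NSPCC1 libraries 03 was the lowest in muscle signal (1.06%) and in both genes. There, 01 had the most muscle signal (1.69%) and the most Rbm38, but 02 had the most Rbm24. Model 03 also had the most immune, fibroblast and keratinocyte marker signal of the Model libraries. The part of muscle in these falls was not tested. The third Rbm gene called lower, Rbm39, a splicing factor related to U2AF, changed by -0.24 (edgeR adjusted p = 0.0435) with overlapping groups, and the call was lost under the depth of the whole libraries, on FPKM, with only the 8 libraries compared and without Ctrl 01, Ctrl 02, Ctrl 04, Model 01, Model 03, M+NSPCC1 01 or M+NSPCC1 03.

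Helicases had the lowest family medians. Of 25 tested Ddx genes 19 rose and 1 fell, with a median log2 fold change of 0.34, and of 11 Dhx genes 8 rose and 2 fell, with a median of 0.37. The median over all tested genes was 0.25. With DESeq2's size factors 9 of the 25 Ddx genes were called higher, where 41% of all tested genes were. Of 9 tested helicases grouped here with the spliceosome 8 were called higher, with a median of 0.65. For those of ribosome assembly in the nucleolus it was 10 of 13 and 0.34. The spliceosome list is wider than its name, as it includes the mRNA export helicase Ddx39. With DESeq2's size factors the counts of these lists were 7 of 9 and 5 of 13, where 41% of all tested genes were called higher. The difference between the lists was not tested. The helicases that did not pass were Ddx19b at 0.18, Ddx24 at 0.12, Ddx31 at 0.25, Ddx42 at 0.18, Ddx49 at 0.19 and Dhx30 at 0.16.

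Ddx46, which lets U2 bind the branch point, had 53.5, 44.7, 47.1 and 43.4 CPM in M+NSPCC1, 39.7, 66.9, 44.2 and 48.9 in Model and 24.2, 19.2, 24.8 and 20.9 in Ctrl libraries. On the log2 scale the change was 1.16 (SE 0.16; edgeR adjusted p = 4.01e-05), and Model and Ctrl did not overlap. Ddx39, an mRNA export helicase also called Ddx39a, changed by 1.10 (SE 0.16), its near copy Ddx39b by 0.65 (SE 0.14) and Dhx15, which takes spent spliceosomes apart, by 0.68 (SE 0.070). Reads of the Ddx39 pair, and of the similar pairs Ddx19a and Ddx19b and Hnrnph1 and Hnrnph2, may have been divided wrongly. In the nucleolus, Ddx21 changed by 0.80 (SE 0.14). The abundant Ddx5 and Ddx3x, with roles in transcription and in translation, changed by 0.19 (SE 0.071; edgeR adjusted p = 0.0256) and 0.27 (SE 0.070; edgeR adjusted p = 0.00319), calls that both ended with DESeq2's size factors, and that on Ddx5 also without Ctrl 03 or Model 04 and with only the 8 libraries compared (edgeR adjusted p = 0.0702).

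Of 4 tested helicases that sense foreign RNA, Dhx9 and Dhx36 were called higher and Ddx58 and Dhx58 lower, and with DESeq2's size factors 1 was higher and 2 lower. Dhx36 changed by 0.24 (SE 0.095; edgeR adjusted p = 0.0322). Dhx9, which unwinds double-stranded RNA in the nucleus and also acts in innate sensing (chromosome 1, 153455756 to 153487688), had 233, 259, 242 and 248 CPM in M+NSPCC1, 269, 277, 189.7 and 298 in Model and 75, 114, 121 and 109 in Ctrl libraries. Model over Ctrl gave a log2 fold change of 1.3 (SE 0.16; edgeR adjusted p = 1.67e-05). Ddx58, which encodes RIG-I (chromosome 4, 40203777 to 40239825), had 39.5, 36.4, 31.8 and 35.2 CPM in M+NSPCC1, 35.6, 24.3, 52.1 and 33.6 in Model and 88.6, 65.1, 66.4 and 66.7 in Ctrl libraries, and changed by -0.98 (SE 0.20; edgeR adjusted p = 0.00065). Dhx58, its regulator LGP2, had 11.0, 8.53, 6.38 and 5.68 CPM in M+NSPCC1, 7.76, 5.84, 15.5 and 8.39 in Model and 39.7, 19.5, 30.4 and 17.7 in Ctrl libraries and changed by -1.52 (SE 0.35; edgeR adjusted p = 0.00175). Both genes were lower in every library with induced ageing than in any Ctrl library, and Model 03, with the most immune marker signal of the Model libraries (0.142% against 0.0471% to 0.0687%), had the highest Model value of both. Model 03 also had the most muscle, fibroblast and keratinocyte marker signal of the Model libraries (1.5%, 0.863% and 0.878%). Ctrl 01 was the highest Ctrl library in immune markers (0.359%) and in both genes. Among M+NSPCC1 libraries, 02 had the most immune signal (0.0992%), but 01 (0.0715%) had the highest value of both genes. The part of immune or other cells in these values was not tested. Ddx60, which takes part in the same sensing, was too low to be tested, with 0.0917, 0, 0.0911 and 0 CPM in M+NSPCC1, 0, 0, 0.198 and 0.280 in Model and 1.33, 0.331, 1.07 and 0.540 in Ctrl libraries. Its Ctrl values were the highest, and none was above 1.33 CPM. Dhx32 fell too, with 14.4, 8.81, 19.9 and 12.1 CPM in M+NSPCC1, 11.8, 20.8, 17.2 and 17.1 in Model and 57.6, 54.8, 73.6 and 50.7 in Ctrl libraries and a log2 fold change of -1.82 (SE 0.24; edgeR adjusted p = 3.01e-05).

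Promoters are shown for the largest rises of Model over Ctrl that have a single entry in the RefSeq promoter table, Dhx9, Ddx46 and Rbm14, as an example of the sequence in front of these genes. The sequences are from RefSeq (GRCm38.p6) and run 5′ to 3′ on the gene's strand. Each begins 250 bases before that entry's start and ends there or where the RefSeq gene span begins earlier, with no annotated exon inside and at least 200 bases left, a rule that left no gene with a named fall. They lie at chr1:153487689-153487910 (minus strand), chr13:55634749-55634974 (plus strand) and chr19:4811635-4811884 (minus strand). Capitals mark matches, on either strand, to any of 10 motifs searched: the E-box CACGTG, the ETS core CCGGAAG, the CREB site TGACGTCA, the NF-Y box CCAAT, the TATA box as TATAAA, the Sp box GGGCGG, and the longer motifs of NRF1, YY1, MEF2 and ZBTB33. Overlapping matches share capitals, and the sequence of Ddx46 holds no match.
Dhx9: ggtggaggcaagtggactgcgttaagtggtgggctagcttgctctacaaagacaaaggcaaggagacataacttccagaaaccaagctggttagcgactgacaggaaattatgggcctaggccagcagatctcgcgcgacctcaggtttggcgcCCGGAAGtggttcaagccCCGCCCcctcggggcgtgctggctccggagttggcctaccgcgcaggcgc
Ddx46: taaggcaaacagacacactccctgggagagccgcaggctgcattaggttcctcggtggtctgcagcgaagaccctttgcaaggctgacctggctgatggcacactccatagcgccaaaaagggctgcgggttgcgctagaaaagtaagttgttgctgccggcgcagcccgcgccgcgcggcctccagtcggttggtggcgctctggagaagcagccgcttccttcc
Rbm14: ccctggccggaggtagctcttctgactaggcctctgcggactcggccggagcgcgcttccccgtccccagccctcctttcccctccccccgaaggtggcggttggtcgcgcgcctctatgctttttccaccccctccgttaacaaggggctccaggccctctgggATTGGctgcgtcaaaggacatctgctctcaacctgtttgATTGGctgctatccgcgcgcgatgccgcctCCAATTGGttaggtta

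Over all members with an entry (110 of 126, with 142 windows from 250 bases before to 50 after a start), CCGGAAG occurred in 42 windows, or 29.6%, against 14.5% of the windows of all genes in the tables and 8.86% of all annotated windows. It was in 6 of 7 Sf3 windows and 6 of 12 Dhx windows, and in 1 of 11 Lsm windows. GGGCGG was as frequent in the members' windows (59.2%) as in those of all genes in the tables (58.7%), CCAAT occurred in 43.7% against 37.0%, CACGTG in 9.86% against 9.21%, TATAAA in 9.15% against 9.03% and TGACGTCA in 5.63% against 2.78%. The other 4 motifs were each found in at most 4 of the members' windows. The median GC content was 60.0% in the members' windows and 60.3% in those of all genes in the tables. These shares were not tested, a match is a string of letters and not a binding site, and the motifs were chosen with the members known.

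Most splicing genes outside the name rule, from a list of 89 of which 66 were in the tables, were also higher. In Model against Ctrl 50 rose, 7 fell and 9 did not pass. That is 75.8% higher and 10.6% lower, where 49.1% and 41.4% of all tested genes were called. In either direction 86.4% were called, against 90.5% of all tested genes. Their median log2 fold change was 0.51, against 0.25 over all tested genes. Ptbp1, a repressor of exons, changed by 1.0 (SE 0.12), the U5 protein Snrnp40 by 1.01 (SE 0.11) and the U5 helicase Snrnp200 by 0.48 (SE 0.090), genes picked as examples after their values had been seen.

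The comparison of M+NSPCC1 with Model asks what the grape seed extract changed in induced ageing. No member passed edgeR's threshold in either direction, as no gene did in the whole table (percentage called 0), and DESeq2, which called 0.205% of all genes higher and 0.771% lower, and limma called no member either. At an unadjusted p under 0.05 there were 6 members of 124, where 6.57% of all tested genes stood below that value. The smallest edgeR adjusted p of a member was 0.549, that of Dhx30. Of the 124 log2 fold changes 79 were above 0 and 45 below, where 3932 of all 7638 tested genes were above 0 and 3701 below. The members' median was 0.043 against 0.0055 over all tested genes, and without the library Model 03 it was -0.024. The 95% interval left out a 2-fold change, up or down, for 121 members, a 1.5-fold change for 113 and a 1.2-fold change for 42.

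Family medians of M+NSPCC1 over Model ranged from -0.040 (Rbm) and -0.040 (Dhx) to 0.11 (Lsm) and 0.11 (Srsf) on the log2 scale. All 12 Snrp genes had values above 0, from 0.032 to 0.17, none past the threshold. They were measured in the same libraries, so their shared sign is not 12 separate results. Model 03 had the lowest Snrp share of the Model libraries, at 0.109% against 0.127% to 0.143%. For Snrpb the log2 fold change was 0.12 (95% interval -0.049 to 0.29), for Hnrnpa1 0.21 (-0.10 to 0.52), for Srsf1 0.055 (-0.16 to 0.27), for Prpf8 0.032 (-0.20 to 0.26) and for Dhx9 -0.074 (-0.42 to 0.27). Rbm24 and Rbm38, the largest falls of the model, were at 0.076 (-0.56 to 0.71) and 0.19 (-0.31 to 0.69). The intervals of Rbm24 and Rbm38 are wide, and neither shows that the groups are alike.

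**Figure D4:**
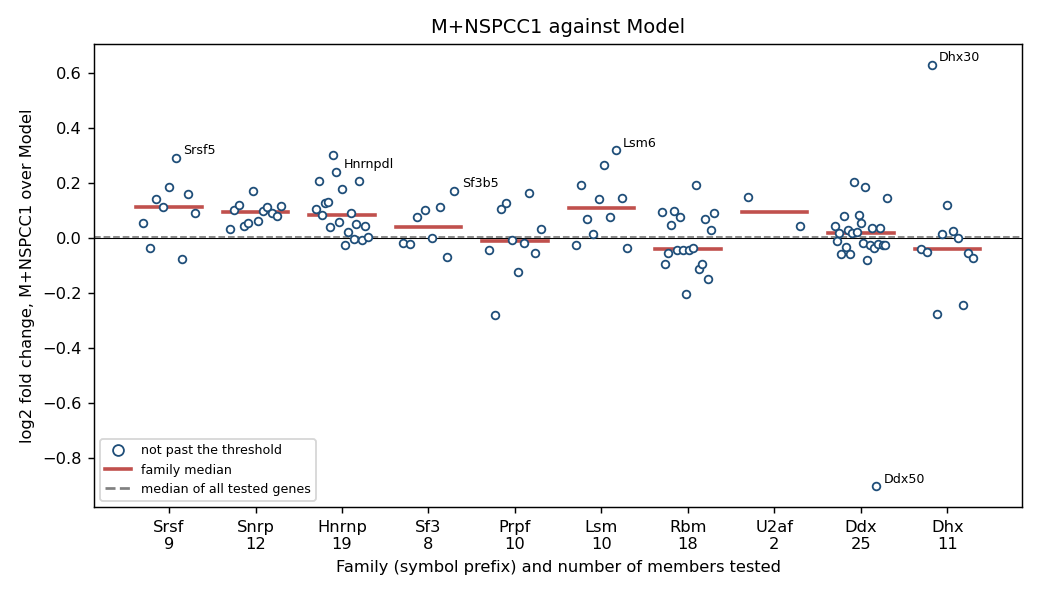
Log2 fold change of M+NSPCC1 over Model for each of the 124 members tested, by family, with family medians in red and the median of all tested genes dashed; open points did not pass an adjusted p of 0.05. No member passed, and the 6 with an unadjusted p under 0.05 are named.

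The members nearest to a difference were Dhx30, Lsm6, Hnrnpdl, Sf3b5, Srsf5 and Ddx50. Dhx30, a helicase of mitochondrial RNA, had 20.5, 25.6, 32.2 and 24.4 CPM in M+NSPCC1 and 22.0, 13.9, 16.6 and 14.0 CPM in Model libraries, with Model 01 inside the M+NSPCC1 range. Its log2 fold change was 0.63 (95% interval 0.21 to 1.05; edgeR adjusted p = 0.549). Lsm6, of the U6 ring, had 65.5, 64.4, 74.9 and 69.5 CPM in M+NSPCC1 and 46.4, 61.3, 51.4 and 60.9 CPM in Model libraries and a log2 fold change of 0.32 (95% interval 0.089 to 0.55; edgeR adjusted p = 0.606). For Lsm6, Hnrnpdl, Sf3b5 and Ddx31 every M+NSPCC1 library lay above every Model library (1.3% of all tested genes), and for Rbm42 every one lay below (2.89%).

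Hnrnpdl, Sf3b5 and Srsf5 share a pattern of values: none was called between Model and Ctrl with the scaling used throughout, and they stood at 0.24, 0.17 and 0.29 in M+NSPCC1 over Model (edgeR adjusted p = 0.621, 0.676 and 0.684). Srsf5 had 486, 363, 397 and 484 CPM in M+NSPCC1, 305, 409.7, 356 and 343 in Model and 393, 361, 343 and 319.7 in Ctrl libraries, with 2 M+NSPCC1 libraries within the Model range. Ddx50, at 1.10, 1.85, 0.729 and 0.799 CPM in M+NSPCC1, 1.52, 2.32, 1.79 and 2.80 in Model and 0.332, 0.442, 0.322 and 0.324 in Ctrl libraries, was the member with the largest rise of Model over Ctrl (2.53, SE 0.42, edgeR adjusted p = 0.000158) and lay -0.90 in M+NSPCC1 over Model (edgeR adjusted p = 0.684). All its values are a few CPM or fewer.

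M+NSPCC1 against Ctrl shares its Ctrl libraries with the comparison of Model and Ctrl, so the values are given side by side and their likeness is not a result. In M+NSPCC1 111 members were called higher and 8 lower in edgeR, where 50.1% and 43.1% of all tested genes were called, and the members' median was 0.58 against 0.27 over all genes. With DESeq2's size factors 87 were higher and 9 lower (background 42.3% and 43.5%), with whole-library depth 116 and 6 (55.2% and 41.8%), with DESeq2's own test 91 and 11 (43.3% and 44%), and with limma 115 and 7 (56.1% and 41.7%). The log2 fold change over Ctrl was 1.38 in M+NSPCC1 and 1.33 in Model for Srsf1, 1.26 and 1.05 for Hnrnpa1, 0.44 and 0.32 for Snrpb, and 1.02 and 1.09 for Sf3b4. It was 1.23 in M+NSPCC1 and 1.3 in Model for Dhx9, 1.04 and 1.08 for Rbm3, -3.04 and -3.11 for Rbm24, and -1.76 and -1.52 for Dhx58.

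By family, called members of M+NSPCC1 against Ctrl numbered 9 of 9 Srsf, 19 of 19 Hnrnp, 8 of 8 Sf3, 9 of 10 Prpf and 2 of 2 U2af genes, all higher. In the other families there were 11 higher and 1 lower of 12 Snrp, 9 and 1 of 10 Lsm, 13 and 3 of 18 Rbm, 22 and 1 of 25 Ddx, and 9 and 2 of 11 Dhx genes. With DESeq2's size factors 5 Prpf genes were called higher and 1 lower, and 8 Rbm and 14 Ddx genes higher. Of all tested genes 42.3% were called higher and 43.5% lower under that scaling. Hnrnpdl was called higher over Ctrl at 0.25 (edgeR adjusted p = 0.0145), Sf3b5 at 0.17 (edgeR adjusted p = 0.0283) and Srsf5 at 0.29 (edgeR adjusted p = 0.0368). None of these 3 calls held with DESeq2's size factors. That on Sf3b5 was also lost without Ctrl 01, Ctrl 02, M+NSPCC1 03 or M+NSPCC1 04, and that on Srsf5 without Ctrl 02, Ctrl 03, Ctrl 04, M+NSPCC1 01 or M+NSPCC1 04. A call against Ctrl in M+NSPCC1 and none in Model does not show that the groups with induced ageing differ, and their direct comparison passed for none of the 3.

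Rbm47 was the other member that was not tested. It was at 0 in all libraries except M+NSPCC1 04 (7.81 CPM), Model 01 (10.2 CPM) and Model 04 (9.13 CPM).

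Sums over transcripts hid opposite movements in 3 of the 34 members measured through several transcripts: Lsm14b, Prpf18 and Dhx36, singled out after their values had been seen. The same count over all genes with several transcripts was not made, so the 3 are examples and not a trait of the members. In 5 of the 34 the transcripts had identical values and could not show opposite movement. Lsm14b, a component of cytoplasmic RNA granules, had 1.10, 5.56, 9.47 and 1.95 CPM in M+NSPCC1, 1.23, 1.39, 5.26 and 1.12 in Model and 29.8, 30.4, 21.8 and 23.0 in Ctrl libraries through its first transcript. Through its second it had 41.1, 53.4, 55.4 and 56.7 CPM in M+NSPCC1, 56.7, 56.6, 31.0 and 60.6 in Model and 13.9, 8.28, 0.322 and 13.9 in Ctrl libraries. The log2 fold changes of Model over Ctrl were -3.51 (SE 0.69; edgeR adjusted p = 0.000635) and 2.52 (SE 0.61; edgeR adjusted p = 0.00236). Ctrl 03 was far below the other Ctrl libraries in the second transcript. Prpf18, which acts in the second step of splicing and as a sum did not pass, had 3.03, 2.69, 3.92 and 3.64 CPM in M+NSPCC1, 6.53, 0, 6.75 and 1.3 in Model and 21.8, 26.5, 19.2 and 20.9 in Ctrl libraries through its first transcript, a log2 fold change of -2.57 (SE 0.81; edgeR adjusted p = 0.0105). Its second changed by 0.39 (SE 0.070; edgeR adjusted p = 0.000355). For Dhx36, which unwinds folded guanine-rich RNA, the transcripts changed by 0.34 (SE 0.10; edgeR adjusted p = 0.00795) and -0.96 (SE 0.30; edgeR adjusted p = 0.011), and the second held at most 5.18 CPM in any library. Over all member transcripts, 143 were called higher and 11 lower in Model (background 49.1% and 41.9%), and 150 and 14 in M+NSPCC1 (50.6% and 44.2%), both against Ctrl. Reads were divided among transcripts by estimation, so these splits are less certain than the sums.

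**Figure D5:**
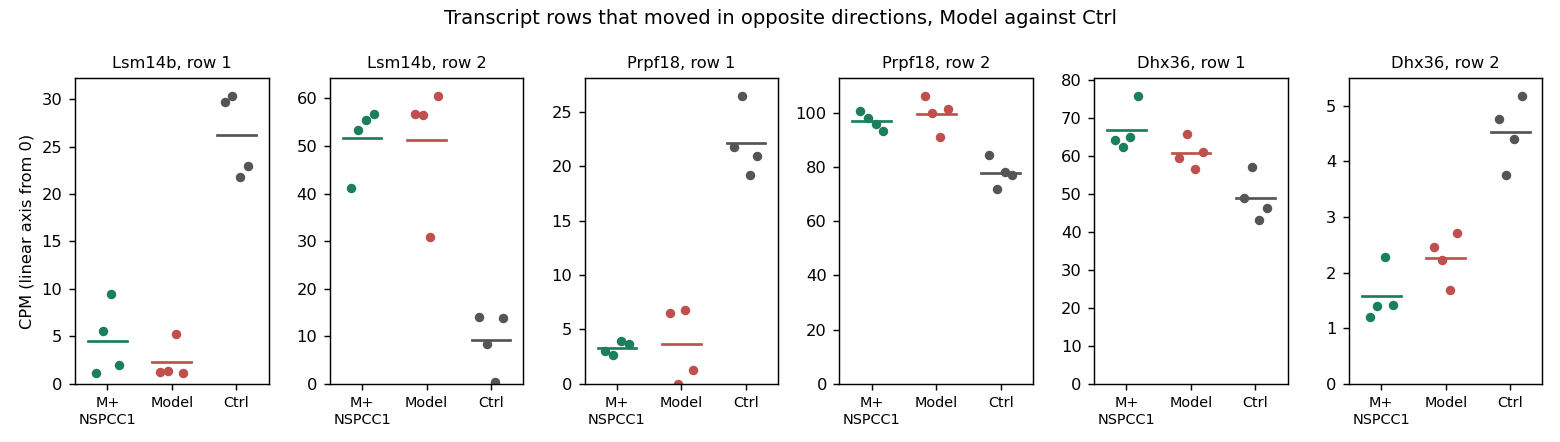
CPM after TMM scaling of each of 2 transcripts of Lsm14b, Prpf18 and Dhx36 (numbered by their order in the deposited tables) in each library (points) with the group mean (line), on linear axes from 0, for M+NSPCC1, Model and Ctrl (n = 4 each). In each gene 1 transcript is higher and the other lower in Model than in Ctrl, and the lone low point of Lsm14b's second transcript in Ctrl is Ctrl 03 at 0.322 CPM.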

How the data were processed

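Per the labels' protocols, total RNA of skin was taken up in TRIzol and sequenced from mRNA libraries. The deposited tables give, for each of 12 libraries, estimated counts and FPKM per transcript. HISAT2 2.2.1, RSEM 1.3.1, DESeq2 1.34.0 and mm10 are listed in the submitters' processing notes, with no roles. FPKM were made by the authors, and are relative to transcript length and to the reads of the whole library. The sources used here do not say how transcripts were selected for the tables, and counts of called genes hold within that selection only. The deposited estimated counts were summed by gene ID and rounded (69.5% of genes had a sum that was not whole, with a tolerance of 0.011 per transcript). The sum over transcripts kept 12 member transcripts with values identical to another of the same gene, in 5 genes (Lsm2, Snrpc, Hnrnpu, Srsf1 and Ddx39b), whose levels are too high if these are copies. Summed counts were between 9717338 and 10952623 per library, and the whole libraries' relative depths, from the ratio of count to FPKM, were 0.967 to 1.03. Coordinates and promoters are from RefSeq GRCm38.p6, which is the build of mm10.

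Differences were tested mainly with edgeR 4.0.16 (quasi-likelihood, TMM scaling, low counts removed with filterByExpr, R 4.3.3) in 1 fit of all 12 libraries, with Benjamini-Hochberg adjustment over 7638 genes and a threshold of 0.05. The fit was tested on counts simulated for 7638 genes, with 100 genes changed 1.5-fold and 100 changed 2-fold per comparison. It called 27 and 64 of these in the right direction in M+NSPCC1 against Model. The numbers were 42 and 68 in Model against Ctrl, and 33 and 71 in M+NSPCC1 against Ctrl. Unchanged genes called numbered 8, 5 and 6 in the same order. Most simulated 1.5-fold changes were therefore missed. The simulation changed few of the 7638 genes, while 90.5% were called in Model against Ctrl, which makes the adjusted threshold less strict there. The simulated numbers therefore do not carry over to the comparisons with Ctrl. In Model against Ctrl, 51 members were called at rises under 1.5-fold. An absent call is still not evidence of no change. Alternatives were size factors from DESeq2, whole-library depth, other count filters, DESeq2 1.42.0, limma 3.58.1 on log2(FPKM + 1) or log2(FPKM + 0.1) with a minimum mean of 0.5 FPKM or none, the 8 libraries compared alone, a replicate block, transcripts, and leaving out each library. Intervals are at 95%. No pair of libraries agreed within counting noise, so none was counted as 1 sample. Figures and tables were made with Python 3.11.15.

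Genes were named by a rule: the 2 with the highest mean FPKM of each family; the 8 largest rises and falls of Model against Ctrl among called members of at least 5 CPM with no overlap (7 falls met this); the 6 with the smallest p of M+NSPCC1 against Model; a set of 27 known genes, of which 25 were tested; and members called against the direction of their family. Other genes named were chosen after their values were seen. Members, gene lists and tests were chosen with earlier results of these data known.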

Additional observations from a re-analysis of the deposited data

Results flagged for a closer look

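In 9 of 141 groups of 4 libraries, each a named member in 1 group, the highest library stood apart from the other 3 by more than Dixon's 95% critical ratio for groups of that size. Chance alone flags about 1 group in 20. In M+NSPCC1 libraries, Rbm38 had 28.2 CPM in M+NSPCC1 01 against 17.5 to 19.2 CPM in the other 3, and Sf3b2 had 438 CPM in M+NSPCC1 04 against 396 to 400.4 CPM. In Ctrl 03, the Sm ring genes Snrpe and Snrpg both stood high, at 79.5 CPM against 61.1 to 63.8 CPM and at 67.2 CPM against 52.5 to 54.2 CPM in the other Ctrl libraries. In Ctrl 01, Ddx58 had 88.6 CPM against 65.1 to 66.7 CPM and Prpf38a 53.2 CPM against 49.5 to 50.1 CPM. In Ctrl 02, Snrpn had 18.3 CPM against 14.8 to 15.4 CPM and Ddx50 0.442 CPM against 0.322 to 0.332 CPM. Ddx3x had 778 CPM in Ctrl 04 against 719 to 727 CPM in the other Ctrl libraries. No Model library was flagged in this way for any named member.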

How the results depend on the processing

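For Model against Ctrl, the members called higher numbered between 77 and 113, and those called lower between 7 and 11, over the alternatives run on genes, and leaving out 1 library gave 97 to 109 higher and 7 to 8 lower. For M+NSPCC1 against Model every alternative and every left-out library gave 0 members in both directions, with a median between -0.024 and 0.094 without 1 library. For M+NSPCC1 against Ctrl leaving out 1 library gave 105 to 113 higher and 8 lower, with medians of 0.54 to 0.63, against 0.50 to 0.58 for Model. The replicate numbers did not pair the libraries (correlations of same-numbered libraries between -0.236 and 0.116), and with a replicate block the counts were 100 higher and 7 lower in Model against Ctrl, 0 and 0 in M+NSPCC1 against Model, and 106 and 8 in M+NSPCC1 against Ctrl. Named calls not past the threshold under the block were those on Ddx5, Lsm7, Rbm17 and Rbm39 in Model against Ctrl, and on Sf3b5 and Srsf5 in M+NSPCC1 against Ctrl.

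Scaling moved most. In Model against Ctrl, the members' median was 0.34 with DESeq2's size factors and with DESeq2's test, 0.69 with whole-library depth, and 0.66, 0.68 and 0.65 with limma on log2(FPKM + 1), on log2(FPKM + 0.1) and with no filter. Called higher were 5 Lsm genes with DESeq2's size factors and 5 with its test, 8 and 9 Rbm genes, and 9 and 10 Ddx genes. Of all tested genes 41% and 41.4% were called higher under the same settings. Called lower were 1 Sf3 gene under both, 1 Hnrnp gene with DESeq2's test, and 2 Ddx genes with no count filter and with DESeq2's test. In M+NSPCC1 against Ctrl the medians were 0.42, 0.80, 0.42, 0.73, 0.78 and 0.71 in the same order of settings (size factors, depth, DESeq2's test, limma). There, 14 member transcripts were lower, against 8 genes. Prpf genes numbered 5 higher and 1 lower with DESeq2's size factors and with its test, Rbm genes 8 higher with its size factors, and Ddx genes 14 higher under both. The shares of all tested genes called higher there were 42.3% with the size factors and 43.3% with the test. The Ddx genes lower were 2 with no count filter, 3 with DESeq2's test and 2 with limma and no filter, and no Lsm gene (0) was lower with whole-library depth. The cause of these shifts was not tested beyond the scaling itself.

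Among named members, directions reversed for Hnrnpdl in Model against Ctrl with DESeq2's test (-0.17, DESeq2 adjusted p = 0.0459), for Sf3b5 there under size factors from DESeq2 (-0.17, edgeR adjusted p = 0.0221) and its test (-0.17, DESeq2 adjusted p = 0.00777), and for Rbm39 in M+NSPCC1 against Ctrl on FPKM (0.031, 0.034 and 0.031). The cause was not tested. Members that stayed uncalled were counted as unchanged whatever their sign. Ddx50 and Ddx60 had few counts in every library, which limits the precision of their values.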

Other observations

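Splicing regulators outside the name rule are named here after their values were seen. The epithelial splicing regulators Esrp1 and Esrp2 rose in Model against Ctrl by 1.58 (SE 0.11; edgeR adjusted p = 3.28e-07) and 1.63 (SE 0.13; edgeR adjusted p = 7.31e-07) on the log2 scale. Esrp1 had 392, 409, 444 and 439 CPM in M+NSPCC1, 444, 489, 384 and 481 in Model and 170.3, 137, 127 and 168 in Ctrl libraries. Mbnl3, a muscleblind protein, changed by 1.38 (SE 0.24), and its relatives Mbnl1 and Mbnl2 by -0.72 (SE 0.14) and -0.32 (SE 0.10).

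The largest falls were those of Srpk3, a kinase of SR proteins in muscle, with 4.40, 2.69, 2.64 and 4.26 CPM in M+NSPCC1, 2.75, 1.58, 4.76 and 2.70 in Model and 38.2, 36.8, 37.1 and 39.4 in Ctrl libraries, and Rbfox1, a regulator of muscle and neuronal exons, with 14.9, 7.23, 7.29 and 11.2 CPM in M+NSPCC1, 9.28, 3.24, 15.0 and 5.22 in Model and 95.3, 118, 95.1 and 85.5 in Ctrl libraries. Their log2 fold changes of Model over Ctrl were -3.68 (SE 0.30; edgeR adjusted p = 7.95e-07) and -3.59 (SE 0.41; edgeR adjusted p = 9.78e-06), and no library with induced ageing reached the Ctrl range in either gene. Rbfox2 and Nova1 were also called lower, at -2.17 (SE 0.27) and -2.31 (SE 0.28). Skeletal muscle markers fell with these genes (median -3.22), and their part in the falls was not tested. None of the 66 genes passed in M+NSPCC1 against Model in edgeR, where 4 had an unadjusted p under 0.05 (6.57% of all tested genes did so).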
